A study of Mus musculus with 18 samples.

Results

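Iron, copper and zinc are needed by enzymes but are harmful when free, so cells import them through dedicated carriers, keep them bound and pump the surplus out. In the retina, iron arrives bound to transferrin, is taken up through the transferrin receptor, is stored in ferritin and leaves with the help of copper-loaded oxidases such as ceruloplasmin. Copper leaves through a pair of related ATPases, and metallothioneins bind zinc and copper. Retinal photoreceptors, with their high oxygen use and oxidizable membranes, are known to suffer from iron overload.

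The 10 genes described here are *Tfrc*, *Trf*, *Cp*, *Hmox1*, *Fth1*, *Ftl1*, *Atp7a*, *Atp7b*, *Mt1* and *Mt2*, out of 78239 genes in the count tables. They were listed as genes of metal uptake, storage and export, and were selected on measured values, the difference between *nsHif1a* and eGFP in these libraries, in particular that of *Atp7b* against *Atp7a* in the cells. Their differences between these groups are therefore given as a description, without a test.

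RNA was sequenced from whole retinas of mice and from 661W cells. The mice had been injected subretinally at postnatal days 29 to 32 with an AAV that expresses either *nsHif1a*, a Myc-tagged mouse HIF1A that escapes oxygen-dependent degradation, or eGFP. Both transgenes were driven by the rod-specific mouse opsin promoter (mOP), and 5 retinas per vector were collected at 3 weeks post injection. The labels give C57BL/6J mice, whereas the study's methods give another inbred strain. The vector reached only a part of the retina, so that each library mixes transduced rods with untransduced rods and all other retinal cells, and fewer cells of a type cannot be told apart from less RNA per cell. The 661W line is a single line of photoreceptor-like cells derived from a mouse retinoblastoma. The cells were kept in room air and transfected with a CMV-*nsHif1a* or a CMV-eGFP plasmid, and 4 samples per plasmid were harvested after 20 h. Separate cultures are not stated for the cells, so that their spread may be technical.

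Each library held between 12898220 and 17809585 counts. Levels are given as CPM, the counts of a library scaled to a common library size, and 3 counts, the limit that a count of 0 allows, correspond to 0.169 to 0.229 CPM (counting error only). Of total *Hif1a*, which includes the transgene, the 661W cells with CMV-*nsHif1a* held 1222, 1241, 1954 and 1825 CPM against 150.0 to 164 CPM with CMV-eGFP, whereas the retinal groups overlapped (642 to 729 CPM against 638 to 698 CPM). The HIF targets *Bnip3* and *Slc2a3* were higher in both experiments (*Bnip3* log2FC 0.98 in the retina and 1.85 in the cells, *Slc2a3* log2FC 0.58 and 1.86, with adjusted *p*-values in limma of at most 0.00191). All 7 rod markers were found in every retina, at a summed level of 43592 to 48209 CPM with AAV::eGFP and of 33969 to 45213 CPM with AAV::*nsHif1a*. None of the 7 had a positive log2FC, whereas all 4 reactive glia, 7 microglia and macrophage and 5 endothelial markers had one. For *Lcn2*, a reactive glia marker, it was only 0.02 (SE 0.59). Of these markers 1, listed under reactive glia, was past both thresholds in limma. That list held *Gfap*, *Edn2*, *Lcn2* and *Serpina3n*, and the study counts *Edn2* among genes of vascular development and angiogenesis. The shift in markers stands beside the retinal differences below, and its part in them was not tested. The 661W cells held only 8.89 to 13.2 CPM of the 7 rod markers, summed, and 0.976 to 1.82 CPM of 6 cone markers. The cells of both plasmids fell into sets by replicate number, more widely with *nsHif1a*. Among the *nsHif1a* cells, replicates 3 and 4 held more *Hif1a* than 1 and 2. Of the control retinas, replicates 1 and 2 held *Xist*, the RNA of the inactive X chromosome, and the other 3 did not, whereas all 5 AAV::*nsHif1a* retinas held it.

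Where the letters of these genes bear on their regulation they are shown first. Hypoxia-inducible factors bind DNA at a short core, and metal-responsive transcription factor 1 binds another. In the 250 bases before the start of the genes, both strands were searched for the hypoxia core (ACGTG or GCGTG) and the metal response core (TGCACNC or TGCGCNC), in RefSeq promoters of GRCm38.p6, which held 8 of the 10 genes, *Hmox1* and *Trf* not among them. Of all 32851 windows of this length, 38.6% held the hypoxia core and 21.4% the metal core. The copper ATPases are shown because *Atp7b* differed most in the cells and *Atp7a* is its counterpart, and the metallothioneins because metal response cores are best known from them. Capitals mark the matches, which can overlap.
Atp7b (chr8:22060075-22060324, minus strand): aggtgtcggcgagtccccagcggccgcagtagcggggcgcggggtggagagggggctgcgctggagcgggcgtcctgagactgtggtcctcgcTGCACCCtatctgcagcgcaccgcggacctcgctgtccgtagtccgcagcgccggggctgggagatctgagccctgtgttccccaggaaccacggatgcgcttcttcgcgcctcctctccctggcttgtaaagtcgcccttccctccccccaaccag
Atp7a (chrX:106026974-106027223, plus strand): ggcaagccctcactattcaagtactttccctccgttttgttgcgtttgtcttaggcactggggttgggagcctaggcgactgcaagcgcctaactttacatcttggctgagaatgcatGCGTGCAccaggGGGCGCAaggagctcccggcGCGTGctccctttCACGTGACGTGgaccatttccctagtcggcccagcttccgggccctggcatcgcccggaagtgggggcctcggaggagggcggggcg
Mt1 (chr8:94178839-94179088, plus strand): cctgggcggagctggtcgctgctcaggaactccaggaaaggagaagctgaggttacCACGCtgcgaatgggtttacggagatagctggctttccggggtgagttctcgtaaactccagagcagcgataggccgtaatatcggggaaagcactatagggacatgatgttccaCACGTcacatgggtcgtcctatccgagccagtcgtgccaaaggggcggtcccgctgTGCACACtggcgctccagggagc
Mt2 (chr8:94172368-94172617, plus strand): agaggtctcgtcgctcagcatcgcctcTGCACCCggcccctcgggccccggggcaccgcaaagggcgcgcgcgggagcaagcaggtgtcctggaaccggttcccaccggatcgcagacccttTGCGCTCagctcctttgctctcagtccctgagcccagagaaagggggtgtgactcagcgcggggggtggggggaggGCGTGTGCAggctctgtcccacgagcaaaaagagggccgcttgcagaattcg

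The *Atp7a* window held 5 matches to the hypoxia core, 132 to 77 bases before the start. Of these, 2 are 1 palindrome, CACGTG, read on both strands. The window also held 2 matches to the metal core, the first of which shares bases with a hypoxia core. The *Atp7b* window held no hypoxia core and 1 metal core, 157 bases before the start. The *Mt2* window held 3 metal cores and 1 hypoxia core, which overlaps the last metal core, and the *Mt1* window held 1 metal core and 2 hypoxia cores. The window of *Ftl1* and 1 of the 2 windows of *Fth1* each held 1 hypoxia core. The 2 windows of *Tfrc* held 2 and 3 hypoxia cores, and the first also held 2 overlapping metal cores. Neither window of *Cp* held a match. A match is not evidence of binding, and a lack of one says only that these letters are not in the window. The windows end at the starts annotated in RefSeq, and bases past them were not searched. Cores of *Mt1* or *Mt2* outside the windows are therefore not counted.

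The transferrin receptor and the ferritin chains are also regulated through their RNA. Iron regulatory proteins bind a hairpin, the iron-responsive element, which stabilizes a transcript when it lies in the 3′ UTR and blocks translation when it lies in the 5′ UTR. Canonical gencode transcripts were searched for a bulged C, a stem of 5 pairs (G with T allowed) and the loop CAGTGN without G at its last base, and of 21593 protein-coding transcripts, 1 a gene, those of 213 genes (0.986%) held a match. *Tfrc* held 4, all in its 3′ UTR, and *Fth1* and *Ftl1* each held 1 in the 5′ UTR. The loop is in capitals, and coordinates are those of GRCm39.
Tfrc (chr16:32450038-32450064, plus strand): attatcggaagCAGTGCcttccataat
Tfrc (chr16:32450417-32450443, plus strand): attatcgggagCAGTGTcttccataat
Tfrc (chr16:32450482-32450508, plus strand): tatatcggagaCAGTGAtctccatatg
Tfrc (chr16:32450529-32450555, plus strand): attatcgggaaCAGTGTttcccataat
Fth1 (chr19:9960097-9960123, plus strand): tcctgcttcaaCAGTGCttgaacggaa
Ftl1 (chr7:45109204-45109230, minus strand): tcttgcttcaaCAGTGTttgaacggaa
Of the control by iron regulatory proteins, RNA levels show only the stability arm, which acts on *Tfrc*, and not the translation of ferritin.

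Of the 10 genes, *Atp7b* showed the widest difference between *nsHif1a* and eGFP, and it did so in the cells. *Atp7b* encodes the copper ATPase that is mutated in Wilson disease, and *Atp7a* the one mutated in Menkes disease. *Atp7b* lies at chr8:22482801-22550352 of GRCm39 on the minus strand. In the 661W cells with CMV-eGFP it had 2, 0, 2 and 2 counts, all within the limit that a count of 0 allows. With CMV-*nsHif1a* it had 58, 45, 133 and 83 counts, or 3.26, 3.16, 7.78 and 4.92 CPM. Every *nsHif1a* library lay above every eGFP library, and the highest values stood in replicates 3 and 4, which also held the most *Hif1a*.

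Summed over the 4 libraries, 319 *Atp7b* counts with *nsHif1a* stood against 6 with eGFP. The ratio of the levels was 50.3 (95% exact interval 22.8 to 138, counting error only). The log2FC fitted for *Atp7b* was 5.33 (SE 0.57), and it depends on the offset added to the counts because the control level is so low. As a difference of mean log2 CPM with a prior count of 2, which the fit does not use, it was 4.39. Of the 9 members in the fit for the cells, 1, *Atp7b*, was past the limits used for all genes (limma adjusted *p*-value under 0.05 and absolute log2FC above 0.5), which is a description and not a test. In the cells, 1.21% of the 15962 tested genes were past them as higher and 0.0626% as lower (193 and 10 genes), or 105 and 2 genes with the replicate number as a block. Nothing is read from the member count, since this contrast was used in choosing the genes. With the block, *Hmox1* was also past them.

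*Atp7a*, at chrX:105070845-105171766 on the plus strand, was present in the cells from the start. It stood at 32.8, 31.7, 33.6 and 31.8 CPM with CMV-eGFP and at 37.6, 37.6, 39.2 and 33.3 CPM with CMV-*nsHif1a*. The groups overlapped through replicate 3 of eGFP and replicate 4 of *nsHif1a*, but within each replicate number the *nsHif1a* library was the higher, in 4 of 4. The *Atp7a* log2FC was 0.18 (SE 0.06).

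Per length of the canonical transcript, *Atp7b* amounted to 0 to 0.00589 of *Atp7a* in the control cells. In the *nsHif1a* cells the ratio was 0.108, 0.105, 0.247 and 0.184. *Atp7a* thus stayed the more abundant of the pair in every cell library.

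**Figure D1:**
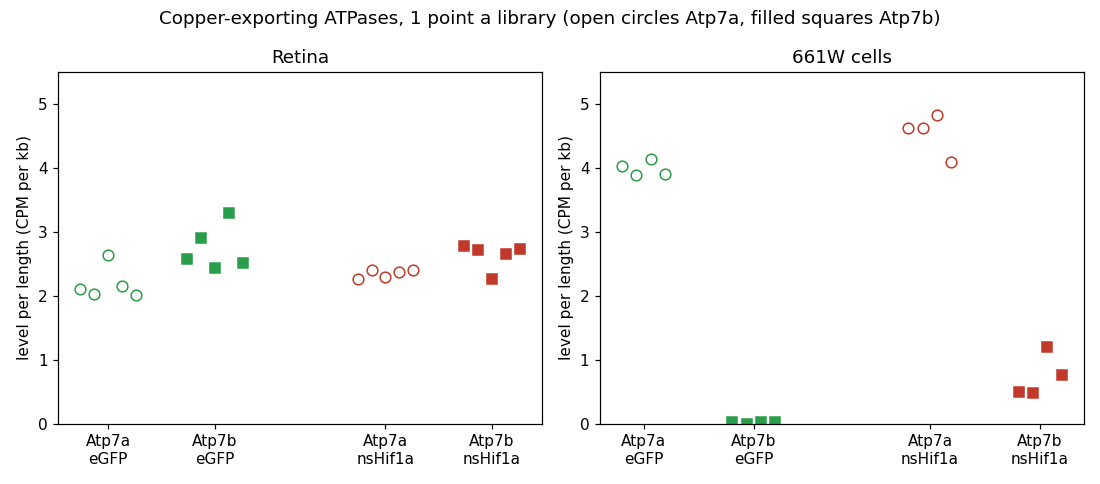
Levels per transcript length (CPM per kb) of *Atp7a* (open circles) and *Atp7b* (filled squares) in every library of the retina (left) and the 661W cells (right), in green for eGFP and red for *nsHif1a*. In the retina the pair lies between 2.02 and 3.30 CPM per kb in both groups, whereas in the cells *Atp7b* lies at 0 to 0.0230 CPM per kb with eGFP and at 0.484 to 1.19 with *nsHif1a*, below *Atp7a*.

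In the retina the pair was balanced. *Atp7b* stood at 16.8, 18.9, 15.9, 21.5 and 16.4 CPM with AAV::eGFP and at 18.1, 17.7, 14.8, 17.3 and 17.8 CPM with AAV::*nsHif1a*. *Atp7a* stood at 17.1, 16.5, 21.4, 17.6 and 16.4 CPM and at 18.4, 19.5, 18.7, 19.3 and 19.5 CPM. Neither gene separated the groups.

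The retinal log2FC was -0.07 (SE 0.09) for *Atp7b* and 0.12 (SE 0.07) for *Atp7a*. Per length, *Atp7b* was 0.925 to 1.53 times *Atp7a* in the control retinas and 0.982 to 1.23 times in the *nsHif1a* retinas. The effect on *Atp7b* in the retina minus that in the cells was -5.57 on the log2 scale (SE 0.52), against a background of 0.819% of genes that passed the thresholds with a negative difference and 0.419% with a positive one, from which nothing is read.

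Over the 8 cell libraries, the genes with the pattern of log2 CPM most like that of *Atp7b* were *Slc2a3* (Pearson *r* = 0.992), *Bnip3* (*r* = 0.991) and *Hif1a* (*r* = 0.991), among 15961 genes compared. *Slc2a3* encodes a glucose transporter and *Bnip3* a mitophagy receptor. The 8 libraries share the contrast between the plasmids, and no test is given.

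*Hmox1*, which encodes the heme oxygenase that frees iron from heme and is induced by many stresses, showed the largest retinal log2FC of the 10 genes. Its retinal level was 5.20, 11.4, 5.76, 12.2 and 6.02 CPM with AAV::eGFP and 36.4, 8.19, 38.1, 52.4 and 23.3 CPM with AAV::*nsHif1a*. The *nsHif1a* group was higher in 4 libraries, and its replicate 2 fell among the controls. The log2FC was 1.62 (SE 0.60).

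Lens markers moved with retinal *Hmox1*. The summed level of the 6 γ-crystallin markers was 682, 2077, 634, 2816 and 947 CPM in the control retinas and 10904, 1299, 11515, 18956 and 920 CPM in the *nsHif1a* retinas, with all 6 present in every library. The *nsHif1a* replicates 1, 3 and 4 were high in both, whereas replicate 5 was high in *Hmox1* and not in crystallins. Replicate 5 had the highest summed level of 7 microglia and macrophage markers (184 CPM, against 42.0 to 167 CPM in the controls and 62.2 to 149.6 CPM in the other *nsHif1a* retinas) and of 4 reactive glia markers (604 CPM, against 98.1 to 251 CPM in the other 9 retinas). Their part in the *Hmox1* difference was not tested. With the mean crystallin level as a covariate, the *Hmox1* log2FC was 0.29, and without replicates 1, 3 and 4 it was 0.88. The part of lens tissue in the *Hmox1* difference was not tested further.

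In the cells, *Hmox1* stood at 158, 168, 337.0 and 324 CPM with CMV-eGFP and at 353, 337.4, 495 and 500.4 CPM with CMV-*nsHif1a*. Every *nsHif1a* library lay above every eGFP library, though the nearest pair was almost level. Lens crystallins were at 0 in all 4 *nsHif1a* cell libraries. The log2FC was 0.80 (SE 0.29) over all 8 libraries. Within replicates 1 and 2 it was 1.08, and within replicates 3 and 4 it was 0.59. The control level itself was higher in replicates 3 and 4 than in 1 and 2, by 1.02 on the log2 scale.

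*Hmox1* and *Atp7b* were the members whose groups did not overlap in the cells, 2 of 9 tested, where 7.51% of all tested genes were apart with *nsHif1a* higher and 6.11% with it lower. None of the 10 genes was apart in the retina, where 3.25% of genes were apart with *nsHif1a* higher and 2.69% with it lower. No member was past both limits in the retina with limma, beside 1.08% of the 18859 tested genes as higher and 0.912% as lower, whereas *Hmox1* was past them with edgeR (log2FC 1.96) and DESeq2 (log2FC 1.97). Of all tested genes, 0.896% were past them as higher and 0.631% as lower with edgeR, and 1.2% and 0.695% with DESeq2. In the retina 9 of the 10 genes had a positive log2FC (median 0.22, against 0.00 for all genes tested), and in the cells 4 of 9 had one (median -0.02). These shares belong to the contrasts that chose the genes.

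**Figure D2:**
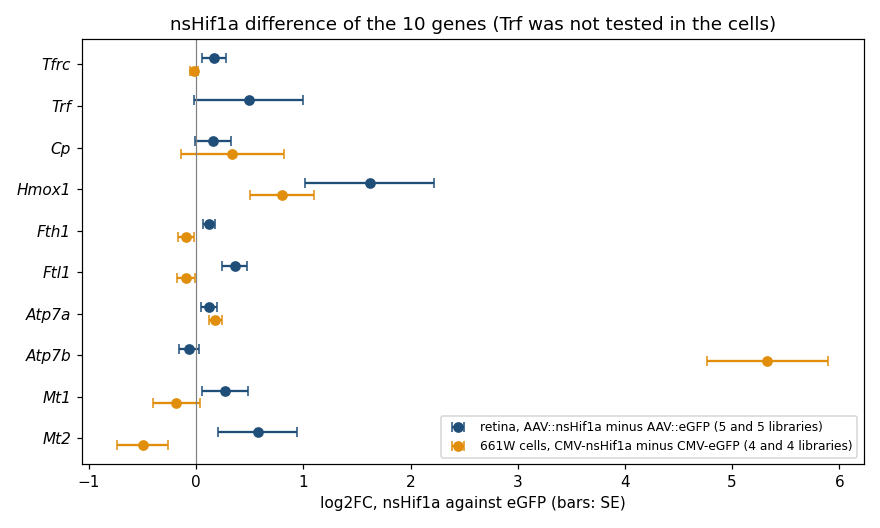
The log2FC of *nsHif1a* against eGFP (bars, SE) for the 10 genes in the retina (blue) and the 661W cells (orange). *Atp7b* in the cells stands at 5.33, *Hmox1* lies at 1.62 in the retina and 0.80 in the cells, and the other values lie between -0.50 and 0.57.

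The ferritin chains store iron, *Fth1* encoding the heavy chain with the oxidase site and *Ftl1* the light chain. Retinal *Fth1* ranged from 365 to 391.6 CPM with AAV::eGFP and from 386 to 489 CPM with AAV::*nsHif1a* (log2FC 0.12, SE 0.06). In the cells it ranged from 728 to 821 CPM with CMV-eGFP and from 652 to 816 CPM with CMV-*nsHif1a* (log2FC -0.10, SE 0.08). The groups overlapped in both experiments.

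*Ftl1* stood in the retina at 60.1, 62.4, 60.9, 65.8 and 66.3 CPM with AAV::eGFP and at 87.7, 68.5, 88.5, 112 and 64.3 CPM with AAV::*nsHif1a*. The same libraries that were high in crystallins, replicates 1, 3 and 4, were the high ones. Its log2FC was 0.36 (SE 0.12), which became 0.06 with the crystallin mean as a covariate and 0.07 without these 3 libraries. In the cells the groups overlapped, at 561 to 687 CPM with CMV-eGFP and 540 to 621 CPM with CMV-*nsHif1a* (log2FC -0.09, SE 0.08), but within each replicate number the *nsHif1a* library was the lower, in 4 of 4.

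Counts of *Ftl1* are uncertain because 80.2% of the 50-base words of its canonical transcript occur in other genes, mostly in the pseudogene *Ftl1-ps1* (73.4%). The 15 genes in the tables that share its words carried 201% to 248% of its own count in every library. With their counts added, the *Ftl1* log2FC was 0.33 in the retina and -0.08 in the cells. For *Fth1* the shared part was 6.59%, and the only gene sharing it, *Fth1-ps*, carried 7.51% to 9.09% of its count.

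Transferrin, the iron carrier encoded by *Trf*, varied widely between retinas of the same group. Its level was 27.4, 31.8, 189, 103 and 77.5 CPM with AAV::eGFP and 45.4, 60.6, 117, 228 and 137 CPM with AAV::*nsHif1a*. The groups overlapped over most of their range. The log2FC was 0.49 with an SE of 0.50.

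Markers of the retinal pigment epithelium, a tissue that lies against the photoreceptors and is known to make transferrin, moved with it. The 7 markers were all found in every retina, and their summed level was 55.1, 37.3, 661, 281 and 202 CPM in the controls and 58.0, 38.4, 350, 794 and 166 CPM in the *nsHif1a* group. In each group, the replicates 1 and 2 were lowest in both the markers and *Trf*, and the library with the most markers had the most *Trf*. With the marker mean as a covariate the *Trf* log2FC was 0.45. In the 5 *nsHif1a* libraries and the 2 control libraries with *Xist* it was 1.69, but those controls are also the ones with the fewest pigment epithelium markers. What sets *Trf* apart between libraries was not tested further.

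The 661W cells, in which pigment epithelium markers summed to at most 1.24 CPM, held a single *Trf* count in 8 libraries. *Trf* was not tested in the cells.

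*Tfrc*, the transferrin receptor, had the log2FC nearest to 0 of the members in the cells. In the retina it stood at 112, 108, 164, 139 and 151 CPM with AAV::eGFP and at 126, 149.7, 169, 156 and 148 CPM with AAV::*nsHif1a* (log2FC 0.17, SE 0.11). In the cells it ranged from 138 to 144 CPM with CMV-eGFP and from 135 to 145 CPM with CMV-*nsHif1a* (log2FC -0.02, SE 0.04). The cell interval of the log2FC ran from -0.11 to 0.07 (95%). The groups overlapped in both experiments.

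*Cp*, the ferroxidase ceruloplasmin, which is made with copper, stood in the retina at 367, 435, 318, 287 and 368 CPM with AAV::eGFP and at 295, 457, 360, 298 and 650 CPM with AAV::*nsHif1a*. Replicate 5 of *nsHif1a* was the highest, and it also had the highest summed level of the reactive glia markers, as given for *Hmox1*. The *Cp* log2FC was 0.16 (SE 0.17). It was 0.55 with the crystallin mean as a covariate and -0.03 over the libraries with *Xist*.

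In the cells *Cp* was low, at 15.6, 14.5, 11 and 10.9 CPM with CMV-eGFP. With CMV-*nsHif1a* it was 33.3 and 33.1 CPM in replicates 1 and 2 but 7.95 and 6.93 CPM in replicates 3 and 4. The *nsHif1a* libraries thus lay above all controls in one set of replicates and below all controls in the other. The fitted log2FC was 1.14 within replicates 1 and 2, -0.56 within replicates 3 and 4, and 0.34 (SE 0.48) over all.

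**Figure D3:**
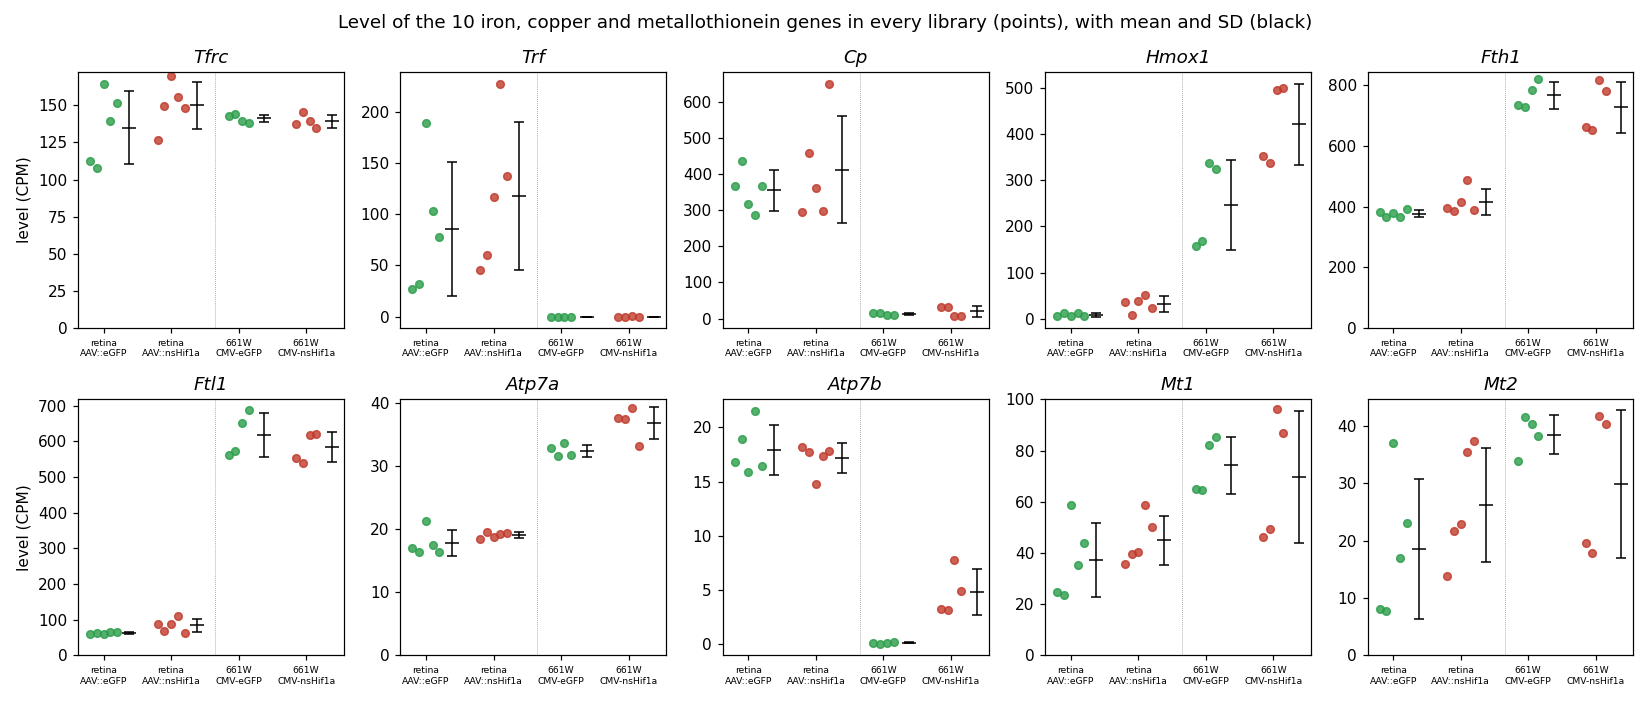
Level (CPM) of each of the 10 genes in every library, in green for eGFP and red for *nsHif1a*, with the mean and SD of each group in black (5 retinas and 4 cell samples per group). *Trf* is at or near 0 in all cells and *Atp7b* in the eGFP cells, and *Cp*, *Mt1* and *Mt2* of the *nsHif1a* cells form pairs of low and high points.

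The metallothioneins *Mt1* and *Mt2* bind zinc and copper and lie side by side on chromosome 8, *Mt2* at chr8:94898819-94900207 and *Mt1* at chr8:94905710-94906955, both on the plus strand. In the retina *Mt1* stood at 24.7, 23.7, 58.8, 35.5 and 43.9 CPM with AAV::eGFP and at 35.6, 39.5, 40.5, 58.8 and 50.2 CPM with AAV::*nsHif1a* (log2FC 0.27, SE 0.21). *Mt2* stood at 8.02, 7.82, 36.9, 16.9 and 23.1 CPM and at 13.8, 21.6, 22.9, 35.5 and 37.3 CPM (log2FC 0.57, SE 0.37). The groups overlapped for both genes.

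The pair moved together from retina to retina. Among 18858 genes compared over the 10 retinal libraries, *Mt1* had the log2 CPM pattern most like that of *Mt2* (Pearson *r* = 0.980), followed by *Car12*, a carbonic anhydrase (*r* = 0.938), and *Ksr2*, a kinase scaffold (*r* = 0.931). The libraries share the sample, including its pigment epithelium content. Replicates 1 and 2 of the controls, low in pigment epithelium markers (55.1 and 37.3 CPM), were lowest in both metallothioneins. The *nsHif1a* replicates 1 and 2 were about as low in these markers (58.0 and 38.4 CPM). They were the lowest of their group in both genes, but held more of both than those controls. The most *Mt2* stood in *nsHif1a* replicate 5, with 166 CPM of the markers. With the pigment epithelium marker mean as a covariate the log2FC was 0.25 for *Mt1* and 0.44 for *Mt2*, and over the libraries with *Xist* it was 0.84 and 1.60.

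**Figure D4:**
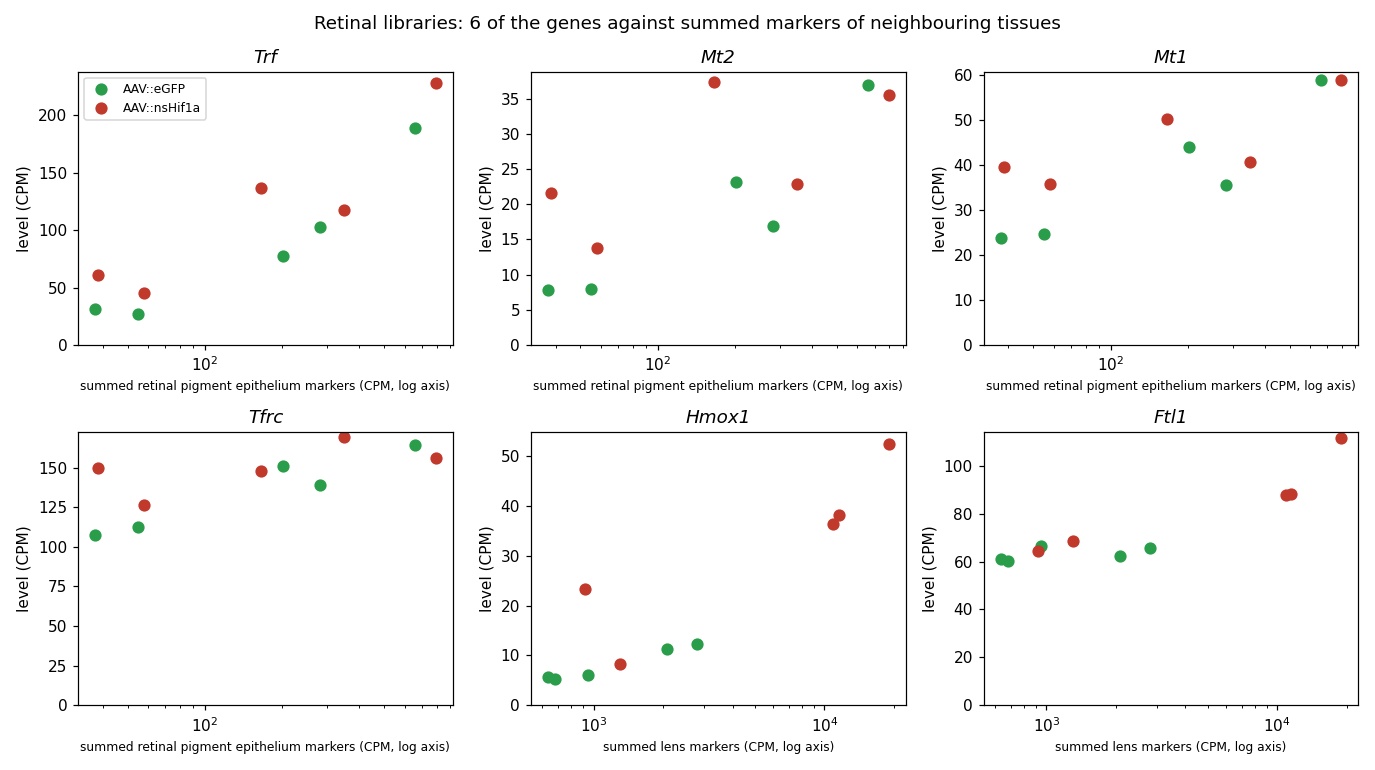
Level (CPM) of *Trf*, *Mt2*, *Mt1* and *Tfrc* in the 10 retinas against the summed level of 7 retinal pigment epithelium markers, and of *Hmox1* and *Ftl1* against that of 6 lens crystallins (log axes, CPM). *Trf* runs from 27.4 to 228 CPM along the first axis in both groups, and the 3 *nsHif1a* retinas with at least 10904 CPM of crystallins hold the most *Hmox1* and *Ftl1*.

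In the cells the sets of replicates again differed. *Mt2* stood at 33.8, 41.6, 40.3 and 38.2 CPM with CMV-eGFP and at 19.6, 17.8, 41.8 and 40.3 CPM with CMV-*nsHif1a*. *Mt1* stood at 64.9, 64.4, 82.2 and 85.3 CPM and at 46.2, 49.4, 96.4 and 86.7 CPM. In replicates 1 and 2 both genes were lower in the *nsHif1a* cells, and in replicates 3 and 4 they were level or slightly higher.

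The *Mt2* log2FC was -0.99 within replicates 1 and 2, 0.06 within replicates 3 and 4, and -0.50 (SE 0.24) over all. For *Mt1* these values were -0.44, 0.13 and -0.19 (SE 0.22). With *Cp*, 3 of 9 members were apart in opposite directions in the sets, beside 9% of the 15962 genes tested, and nothing is read from this count. The sets are not named in the labels, and what divides them was not tested.

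**Figure D5:**
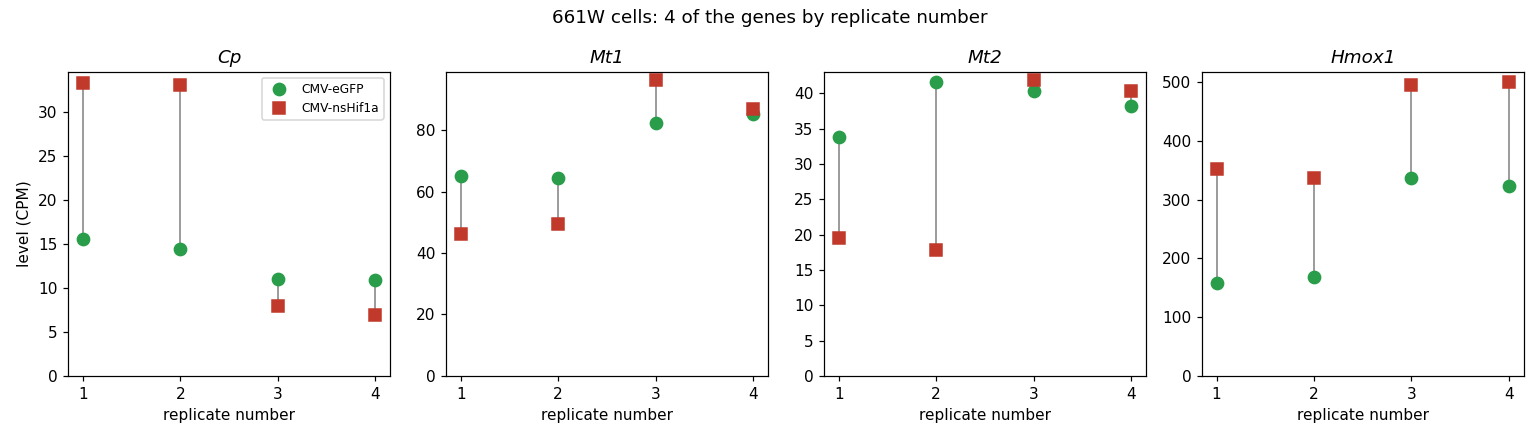
Level (CPM) of *Cp*, *Mt1*, *Mt2* and *Hmox1* in the 661W cells by replicate number, circles for CMV-eGFP and squares for CMV-*nsHif1a*, joined by a line within a number. For *Hmox1* the square is above the circle in all 4 replicates, whereas *Cp* changes from higher (33.3 against 15.6 CPM in replicate 1) to lower (6.93 against 10.9 CPM in replicate 4).

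The control libraries show how the retina and the cell line differ before any *nsHif1a*, which the choice of the genes did not use. Tissue, vector, time and culture all differ here and cannot be told apart. In limma over all 18 libraries, 46.1% of 20999 genes were higher in the control retinas by both thresholds and 35.1% were lower. Of the 10 genes, *Trf*, *Cp* and *Atp7b* were higher in the retina, 6 were lower, and *Tfrc* was level (log2FC 0.04, SE 0.09, adjusted *p* = 0.659).

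Of the genes higher in the retina, *Cp* had a mean of 355 CPM in the control retinas and 13 CPM in the control cells (log2FC 4.86, SE 0.35, limma adjusted *p* = 9.59e-11). *Trf* was at least 1852-fold higher in the control retinas, at 89.2 CPM over the group without TMM scaling against 0 counts in the control cells, where 3 counts over the 4 libraries would be 0.0482 CPM. *Atp7b* had a mean of 17.9 CPM in the control retinas against 0.0970 CPM in the control cells (limma adjusted *p* = 1.04e-11).

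The 6 genes that were higher in the cells included both ferritin chains. *Hmox1* was lower in the retina by a log2FC of -4.81 (SE 0.62, limma adjusted *p* = 4.96e-07), and *Ftl1* by -3.16 (SE 0.10, adjusted *p* = 3.37e-16). *Fth1* was lower by -0.91 (SE 0.06) and *Atp7a* by -0.77 (SE 0.07), both with adjusted *p*-values of at most 1.33e-09 in limma. For the metallothioneins the log2FC was -0.92 for *Mt1* (SE 0.22, adjusted *p* = 0.000733) and -1.13 for *Mt2* (SE 0.33, adjusted *p* = 0.00371).

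Per length of the canonical transcript, *Fth1* was the most abundant of the 10 in the control retinas, at 405 ± 12.1 CPM per kb (SD, n = 5). *Cp* followed at 85.4 ± 13.6, *Ftl1* at 65.1 ± 2.91, *Mt1* at 49.0 ± 19.2, *Trf* at 33.4 ± 25.6, *Tfrc* at 27.6 ± 5.0 and *Mt2* at 24.8 ± 16.2 CPM per kb. From *Ftl1* to *Mt2* neighbours in this order overlapped between libraries. *Hmox1*, *Atp7b* and *Atp7a* were lowest, at 5.14 ± 2.15, 2.74 ± 0.356 and 2.19 ± 0.255 CPM per kb, and each overlapped with the next.

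In the control cells *Fth1*, at 826 ± 47.3 CPM per kb (SD, n = 4), and *Ftl1*, at 638 ± 63.3, were both far above the rest, and their libraries did not overlap. *Hmox1* (157 ± 61.4) and *Mt1* (97.4 ± 14.5) overlapped, and *Mt2* (51.4 ± 4.54) and *Tfrc* (28.8 ± 0.539 CPM per kb) were apart from their neighbours. *Atp7a* (3.99 ± 0.115) and *Cp* (3.12 ± 0.575 CPM per kb) did not overlap either, and *Atp7b* and *Trf* were at or near 0. The heavy chain of ferritin exceeded the light chain per length 5.80 to 6.62 times in the control retinas and 1.25 to 1.37 times in the control cells, subject to the shared words of *Ftl1*.

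Around these 10 genes stood 76 other genes of iron, heme, copper and zinc handling. Of the 67 tested in the retina, 1 rose and none fell by both thresholds in limma, beside 1.08% and 0.912% of all genes. It was *Tfr2*, a second transferrin receptor, best known as an iron sensor of the liver. Its level was 6.72, 5.94, 4.64, 4.82 and 4.44 CPM with AAV::eGFP and 6.97, 7.18, 6.88, 7.64 and 9.49 CPM with AAV::*nsHif1a*. Every *nsHif1a* retina lay above every control, as for 3.25% of all tested genes. The log2FC was 0.52 (SE 0.13, limma adjusted *p* = 0.0397), and it lost the call in most other settings, among them the libraries with *Xist* (log2FC 0.24, adjusted *p* = 0.45).

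By the adjusted *p*-value alone, but under the fold threshold, *Slc30a9*, a zinc transporter, was higher (log2FC 0.27, SE 0.05, adjusted *p* = 0.00709) and *Steap2*, a metalloreductase, lower (log2FC -0.20, SE 0.04, adjusted *p* = 0.0216) in the retina with limma. For both genes the retinal groups did not overlap either, where 2.69% of all tested genes were apart as lower. By function, the number tested was 12 of 12 for iron uptake, 6 of 9 for iron storage and export, 4 of 5 for iron regulation, 8 of 10 for heme synthesis and breakdown, 5 of 5 for mitochondrial iron, 11 of 12 for copper and 21 of 23 for zinc. Outside iron uptake no gene of these groups passed both thresholds. The median log2FC of the 67 genes was 0.04, against 0.00 for all genes.

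In the cells 53 of the 76 genes were tested, and none passed both thresholds in limma, with 11 at an unadjusted *p*-value under 0.05. edgeR and DESeq2 also called none (11 and 9 at an unadjusted *p*-value under 0.05). *Tfr2* had 14, 12, 17 and 16 counts with CMV-eGFP and 46, 27, 22 and 25 counts with CMV-*nsHif1a* (log2FC 0.89, SE 0.26, limma adjusted *p* = 0.104), with no overlap of the groups. Its log2FC was 1.44 within replicates 1 and 2 and 0.34 within replicates 3 and 4. *Steap3*, the ferrireductase of endosomes, passed the adjusted *p*-value alone (log2FC -0.37, SE 0.07, adjusted *p* = 0.0390 in limma). Of the listed genes, *Cpox* was also apart in the cells as higher, and *Steap2*, *Steap3*, *Flvcr1* and *Fech* as lower. Of all tested genes, 7.51% were apart as higher and 6.11% as lower. The median log2FC of the 53 genes was -0.01.

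Without *nsHif1a* replicate 3 of the cells, 4 of 54 of these genes passed both thresholds, beside 7.43% of all genes as higher and 4.19% as lower. Without replicate 4 it was also 4 of 54, beside 7.39% and 4.22%. The difference between the *nsHif1a* effects in retina and cells passed for none of 69 genes in limma, edgeR or DESeq2 (12, 8 and 8 at an unadjusted *p*-value under 0.05). For *Tfr2* it was -0.30 (SE 0.30, limma adjusted *p* = 0.684). In the control libraries, 25 of the 69 genes were higher in the retina and 29 were higher in the cells, beside 46.1% and 35.1% of all genes.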

How the data were processed

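RNA from 10 retinas and 8 samples of 661W cells was analysed, in groups taken from the sample labels. Per the labels and the study's methods, the authors made stranded mRNA libraries, aligned paired-end reads to GRCm39 with Rsubread and obtained whole-number counts per gene with featureCounts in strand-specific mode. The deposited counts were neither filtered nor normalized. Reads that fit several near-identical genes may be assigned to the wrong copy or dropped.

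Genes were filtered with filterByExpr (minimum count 10) and scaled by TMM in edgeR 4.0.16, and voomWithQualityWeights values were fitted in limma 3.58.1 under R 4.3.3, across all genes, with Benjamini-Hochberg adjustment. A prior count of 2 was added for log2 CPM. edgeR's quasi-likelihood test, DESeq2 1.42.0, other filters and scalings, covariates and omissions of single libraries were alternatives. Positions and canonical transcript lengths came from gencode M39, which matched 78168 of 78239 identifiers, and promoters from RefSeq.

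The 10 genes, the list of 76 other metal genes and the markers were chosen with earlier results of these data known. Named genes are the 10, listed genes past both thresholds, the 3 nearest patterns to *Atp7b* and to *Mt2*, and markers. *Slc30a9*, *Steap2*, *Steap3*, *Cpox*, *Flvcr1* and *Fech* were named after their values were seen. Deviations from the group means correlated between same-numbered cell samples in all 4 pairs (*r* = 0.228 to 0.270), so the numbers, taken from the labels, may pair them. The main fit of the cells has no term for this pairing, and the fit with the replicate block is an alternative. In the retina such deviations did not correlate (-0.148 to 0.138).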

Additional observations from a re-analysis of the deposited data

Results flagged for a closer look

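Within the groups of 4 or 5 libraries, 2 of 38 sets of values held a library whose gap to the others exceeded Dixon's limit, about as many as the 1 in 20 that chance gives. *Atp7a* in AAV::eGFP replicate 3 stood at 21.4 CPM, with the next at 17.6 CPM, and *Atp7b* in AAV::*nsHif1a* replicate 3 at 14.8 CPM, with the next at 17.3 CPM. In the 661W cells, 3 genes went opposite ways in replicates 1 and 2 and in replicates 3 and 4, with no overlap within either set, and this difference was not tested. The log2FC was 1.14 and -0.56 for *Cp*, -0.44 and 0.13 for *Mt1*, and -0.99 and 0.06 for *Mt2*, which was close to level in replicates 3 and 4.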

How the results depend on the processing

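Of the 10 genes, none passed in the retina, but 1 (*Hmox1*) did with edgeR, DESeq2, the replicate block or the pigment epithelium covariate, and 0 to 1 without single libraries (1 without *nsHif1a* replicate 2). Of all genes, 0.896% were called higher and 0.631% lower with edgeR, and 1.2% and 0.695% with DESeq2. The shares were 0.748% and 0.313% with the block and 1.11% and 0.954% with the pigment epithelium covariate. Without *nsHif1a* replicate 2 they were 0.879% and 0.513%. In the cells 1 passed, but 2 with the replicate block or with the sets as a covariate, 4 within replicates 1 and 2, 3 within replicates 3 and 4, and 1 to 4 without single libraries (2 without eGFP replicate 3 or 4 or *nsHif1a* replicate 1 or 2, 4 without *nsHif1a* replicate 3 or 4). Beside them, 0.658% of all genes were called higher and 0.0125% lower with the block, 3.25% and 0.457% with the sets as a covariate, 8.29% and 4.02% within replicates 1 and 2, 1.15% and 0.265% within replicates 3 and 4, and 7.43% and 4.19% without *nsHif1a* replicate 3, so nothing is read from these counts. The fitted *Atp7b* log2FC in the cells lay between 4.77 and 5.79. Of the other metal genes, 1 passed in the retina, but 0 with edgeR, voom without sample quality weights, no filter, the replicate block, *Xist* as a covariate or a selection, the crystallin or pigment epithelium covariate, omission of the high-crystallin libraries, or a log2FC above 1, and 0 to 1 without single libraries (0 except without eGFP replicate 1 or 2). In the cells 0 passed, but 4 within replicates 1 and 2 and 0 to 4 without single libraries, and in the difference of effects 0 to 4 (1 without cell *nsHif1a* replicate 1 or 2, 4 without 3 or 4). Nothing is read from these counts either, and the ranges over all genes are given below. At baseline 9 of the 10 genes passed in all alternative fits, except 8 with DESeq2, where *Mt2* missed (adjusted *p* = 0.0575). With an absolute log2FC above 1 required in the main fit, *Fth1* (-0.91), *Atp7a* (-0.77) and *Mt1* (-0.92) did not pass. The baseline has no fit with the replicate block. Over all genes, the calls in the cells ranged from 72 to 1336 higher (main 193) and 2 to 682 lower (main 10), in the retina from 64 to 313 (main 203) and 37 to 215 (main 172), and in the difference from 27 to 689 (main 88) higher and up to 936 (main 172) lower. The causes were not tested. The replicate block, for which only the cells gave some ground, changed no other call of the 10 genes. The set, pigment epithelium, crystallin omission and *Ftl1* alternatives were chosen after seeing the data. Under 4 counts, as for *Atp7b* and *Trf* in the control cells, depth limits any ratio.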
